A study of Mus musculus with 6 samples.

Results

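The 9 genes Ms4a4a, Ms4a4b, Ms4a4c, Ms4a4d, Ms4a6b, Ms4a6c, Ms4a6d, Ms4a7 and Ms4a8a of the mouse Ms4a family were followed in ear skin challenged with FITC (fluorescein isothiocyanate, a reactive dye used as a contact sensitiser). They were taken by symbol from the deposited array table, and all 9 were found among 19938 genes with a probe set of their own. Probe sets were selected on their mean level over all 6 arrays, the brightest of a gene being used, but each of the 9 had just 1. The family was picked with its differences in these arrays already known, so its counts are a description. The study compared 3 CLEC4C-DTR mice with 3 littermate control mice, aged 10 to 12 weeks, with 1 mouse and 1 FITC-treated right ear per array. The CLEC4C-DTR/+ mice carry the diphtheria toxin receptor under the human gene CLEC4C, which marks plasmacytoid dendritic cells, and the controls lack the transgene. Diphtheria toxin (200 ng) was given to all mice of both groups on days -1, 1, 3 and 5. For sensitisation, 100 µL of 0.5% FITC, dissolved in an acetone and dibutyl phthalate mixture, was put on the abdomen on days 0 and 2, and the ear was challenged with 20 µL on day 6. The sources used here do not give the time between challenge and collection. Ears given solvent alone and CLEC4C-DTR mice without toxin were not analysed here, so effects of the transgene, the toxin and the challenge cannot be told apart.

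Ms4a proteins cross the membrane with 4 helices, and the best known are CD20 of B cells (Ms4a1) and the beta chain of the high-affinity IgE receptor (Ms4a2), which tune signals of receptors beside them. The genes lie side by side in one cluster, and most are made by blood cells. Several of the 9 genes are known from macrophages and monocytes (Ms4a4a, Ms4a6c, Ms4a6d, Ms4a7, Ms4a8a), whereas mouse Ms4a4b is best known from T cells and NK cells. Because total RNA of whole skin was measured, fewer cells of a type and less RNA per cell cannot be told apart. The deposited values are log2 intensities made by RMA (robust multi-array average), on which a difference of 1 is a doubling, and levels of different genes are not compared because each probe set binds with its own strength.

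The promoters show how close some of these genes are to each other in sequence. For 8 of the 9 genes RefSeq (GRCm38.p6) gives a start site, and the 250 bases before it were compared in all 28 pairs. The windows of Ms4a6b and Ms4a6c shared a stretch of 180 aligned positions with 148 identical bases (82.2%), and those of Ms4a4b and Ms4a4c a stretch of 128 with 114 identical (89.1%). In the other 26 pairs the longest such stretch was 22 positions. The 4 windows are printed 5′ to 3′ because they hold these paralogous stretches, followed by that of Ms4a4a, the member with the largest difference. Capitals mark the hexamer GGAAGT or its reverse complement ACTTCC. It is an extended form of the GGAA core bound by ETS factors, a class that holds the myeloid factor PU.1. GGAA in other contexts is not marked and was not counted. The windows are chr19:11518309-11518558 on the plus strand for Ms4a6b, chr19:11469118-11469367 on the plus strand for Ms4a6c, chr19:11443308-11443557 on the plus strand for Ms4a4b, chr19:11407411-11407660 on the plus strand for Ms4a4c and chr19:11375238-11375487 on the plus strand for Ms4a4a.
Ms4a6b: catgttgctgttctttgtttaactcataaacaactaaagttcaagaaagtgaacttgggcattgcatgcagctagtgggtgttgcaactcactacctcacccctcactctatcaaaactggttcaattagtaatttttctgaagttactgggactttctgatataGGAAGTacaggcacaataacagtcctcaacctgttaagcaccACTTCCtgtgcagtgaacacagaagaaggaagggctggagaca
Ms4a6c: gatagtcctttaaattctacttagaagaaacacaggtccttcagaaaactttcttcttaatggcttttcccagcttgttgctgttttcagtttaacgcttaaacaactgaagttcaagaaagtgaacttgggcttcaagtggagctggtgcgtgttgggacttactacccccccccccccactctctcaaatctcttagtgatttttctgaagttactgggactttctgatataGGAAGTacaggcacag
Ms4a4b: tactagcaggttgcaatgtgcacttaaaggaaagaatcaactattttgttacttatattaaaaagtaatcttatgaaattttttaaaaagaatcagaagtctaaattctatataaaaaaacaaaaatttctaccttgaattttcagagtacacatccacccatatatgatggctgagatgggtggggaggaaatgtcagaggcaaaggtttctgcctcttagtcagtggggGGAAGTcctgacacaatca
Ms4a4c: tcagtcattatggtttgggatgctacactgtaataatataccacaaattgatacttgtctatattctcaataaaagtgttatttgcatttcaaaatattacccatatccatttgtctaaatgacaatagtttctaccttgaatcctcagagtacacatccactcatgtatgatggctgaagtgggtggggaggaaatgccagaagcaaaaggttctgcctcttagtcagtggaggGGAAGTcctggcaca
Ms4a4a: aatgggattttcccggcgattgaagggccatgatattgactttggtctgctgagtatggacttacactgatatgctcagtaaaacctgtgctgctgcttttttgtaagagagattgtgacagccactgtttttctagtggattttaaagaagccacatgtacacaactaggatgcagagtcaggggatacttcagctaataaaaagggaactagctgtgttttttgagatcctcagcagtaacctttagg

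The hexamer GGAAGT lay in the shared stretches of both pairs. Its first base was 85 bases before the start in Ms4a6b and 16 before it in Ms4a6c, at the same place of their alignment, and 19 and 15 bases before it in Ms4a4b and Ms4a4c. Ms4a6b held another match, on the opposite strand, 43 bases before its start. In all, 6 of the 8 windows held GGAAGT on either strand, against 19.7% of 32851 promoter windows of the same length. Ms4a4a and Ms4a8a held no GGAAGT, though both windows hold the shorter GGAA. The interferon-stimulated response element core (GAAA, any 2 bases, GAAA, in 2.98% of all windows) was in none of the 8 windows. The STAT6-type site (TTC, any 4 bases, GAA, in 5.85%) was found in Ms4a7, where it overlaps the ETS core, the AP-1 site TGANTCA (6.75%) in Ms4a8a and the C/EBP-type site TTGCNNAA (9.56%) in Ms4a4d, all searched on both strands before each gene's first listed start. Ms4a7 has another listed start, whose window held an AP-1 match. Such matches describe letters in these windows and not binding.

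Of the 9 genes, 6 rose in CLEC4C-DTR skin, none fell and 3 did not pass limma's test at an adjusted p of 0.05, where 5.01% of all 19938 genes rose and 4.31% fell. The rises were those of Ms4a4a, Ms4a6d, Ms4a6b, Ms4a8a, Ms4a4c and Ms4a6c, and the genes that did not pass were Ms4a7, Ms4a4b and Ms4a4d. All 9 differences were positive, with a median of 1.09 on the log2 scale, against -0.04 over all genes. In 7 of the 9 genes the 3 CLEC4C-DTR values all lay above the 3 control values, as they did in 14.0% of all genes. At least a 2-fold rise was found in 4 of them (Ms4a4a, Ms4a6d, Ms4a6b and Ms4a8a), against 1.67% of all genes. The count of 6 depended on single arrays, as given below.

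**Figure D1:**
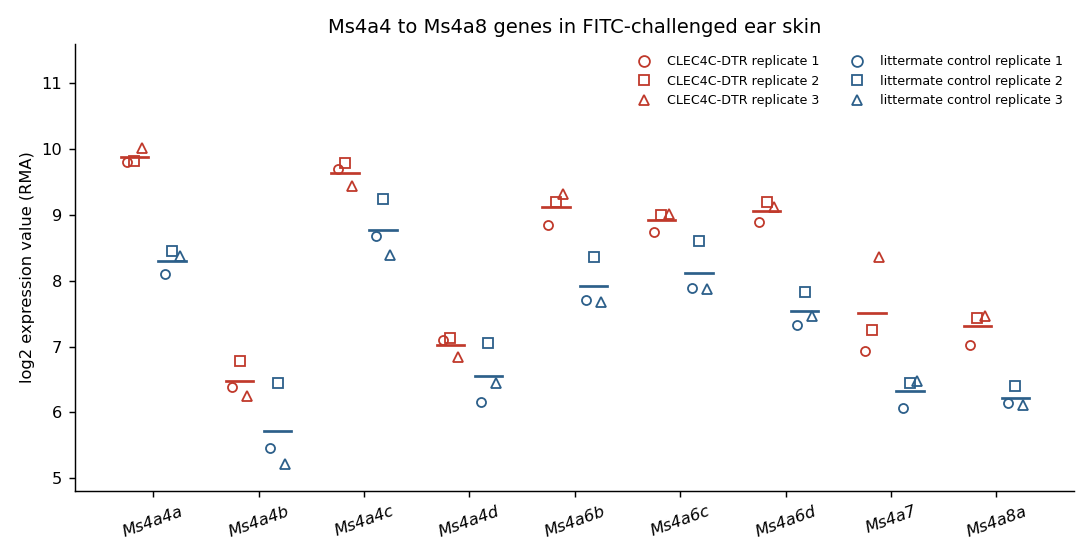
Log2 expression values (RMA, y axis) of the 9 Ms4a genes (x axis) on each array, with CLEC4C-DTR mice in red left of littermate controls in blue, symbols for replicates 1 to 3 and bars for group means. The groups overlap in Ms4a4b and Ms4a4d, where littermate control replicate 2 reaches 6.45 and 7.05, and are apart in the other 7 genes.

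Ms4a4a, which in macrophages associates with the beta-glucan receptor Clec7a, had the largest difference of the 9. It was measured at log2 values of 9.81, 9.82 and 10.02 in CLEC4C-DTR replicates 1, 2 and 3, against 8.10, 8.45 and 8.37 in littermate control replicates 1, 2 and 3. The lowest CLEC4C-DTR value was thus above the highest control by more than the whole range of either group. The gene rose 2.97-fold (log2 1.57, SE 0.11, limma adjusted p = 0.00499) and had the third smallest p of all genes (rank 3 of 19938).

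Ms4a6d, which in mouse macrophages works with the complement receptor Vsig4, followed closely. Its values were 8.89, 9.19 and 9.12 in CLEC4C-DTR skin, against 7.33, 7.83 and 7.46 in littermate control skin. The groups were again far apart, with littermate control replicate 2 the highest control. The rise was 2.88-fold (log2 1.52, SE 0.14, limma adjusted p = 0.00919).

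Ms4a8a is known in mice from alternatively activated macrophages. It was at 7.03, 7.44 and 7.47 in CLEC4C-DTR skin, against 6.14, 6.41 and 6.11 in littermate control skin, with CLEC4C-DTR replicate 1 the lowest of its group. It rose 2.13-fold (log2 1.09, SE 0.14, limma adjusted p = 0.0113). Ms4a6b had values of 8.84, 9.19 and 9.33 in CLEC4C-DTR skin, against 7.71, 8.36 and 7.68 in littermate control skin, where replicate 2 stood above the other controls. It rose 2.30-fold (log2 1.20, SE 0.20, limma adjusted p = 0.0178).

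Smaller rises were found for Ms4a4c and Ms4a6c, both genes of mouse monocytes. Ms4a4c was at 9.70, 9.79 and 9.44 in CLEC4C-DTR skin, against 8.68, 9.25 and 8.39 in littermate control skin (log2 0.87, SE 0.21, limma adjusted p = 0.0399). Ms4a6c was at 8.75, 9.0 and 9.02 in CLEC4C-DTR skin, against 7.90, 8.60 and 7.88 in littermate control skin (log2 0.80, SE 0.19, limma adjusted p = 0.0421). In both genes the groups were separated only narrowly, because littermate control replicate 2 nearly reached the lowest CLEC4C-DTR mouse.

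The other 3 genes did not pass, for different patterns of values. Ms4a7, a gene of macrophages, was at 6.94, 7.25 and 8.36 in CLEC4C-DTR skin, against 6.07, 6.44 and 6.47 in littermate control skin. The groups did not overlap, but CLEC4C-DTR replicate 3 stood well above its group, and the difference of 1.19 (95% interval 0.44 to 1.94) had an adjusted p of 0.0592 in limma. Ms4a4b, reported to slow the division of mouse T cells, was at 6.39, 6.78 and 6.24 in CLEC4C-DTR skin, against 5.46, 6.45 and 5.22 in littermate control skin. Here littermate control replicate 2 lay above 2 of the 3 CLEC4C-DTR mice, and the difference was 0.76 (95% interval 0.08 to 1.44, limma adjusted p = 0.145). Ms4a4d was at 7.11, 7.13 and 6.83 in CLEC4C-DTR skin, against 6.16, 7.05 and 6.44 in littermate control skin. Its replicate 2 control lay above CLEC4C-DTR replicate 3, and the difference of 0.47 had a 95% interval of -0.01 to 0.95 (limma adjusted p = 0.190).

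Leaving out single arrays separated the members. Ms4a4a and Ms4a6d passed in all 6 fits with 1 array left out (adjusted p 0.00061 to 0.0414 and 0.000978 to 0.0460), and Ms4a8a in 3 of them (0.000969 to 0.0583). Ms4a6b and Ms4a6c passed in 2 each, and Ms4a4c, Ms4a4b, Ms4a4d and Ms4a7 in 1 each. By array, the number of members that rose was 6 without CLEC4C-DTR replicate 1, where Ms4a7 passed and Ms4a4c did not, and 3 without CLEC4C-DTR replicate 2 (Ms4a4a, Ms4a6d and Ms4a8a). It was 2 (Ms4a4a and Ms4a6d) when CLEC4C-DTR replicate 3 or either of littermate controls 1 and 3 was left out. Without littermate control replicate 2 it was 8, all but Ms4a7. The count of all genes called was 1858 with all arrays. It was 2617, 466 and 108 without CLEC4C-DTR replicates 1, 2 and 3, and 167, 1219 and 67 without littermate control replicates 1, 2 and 3.

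**Figure D2:**
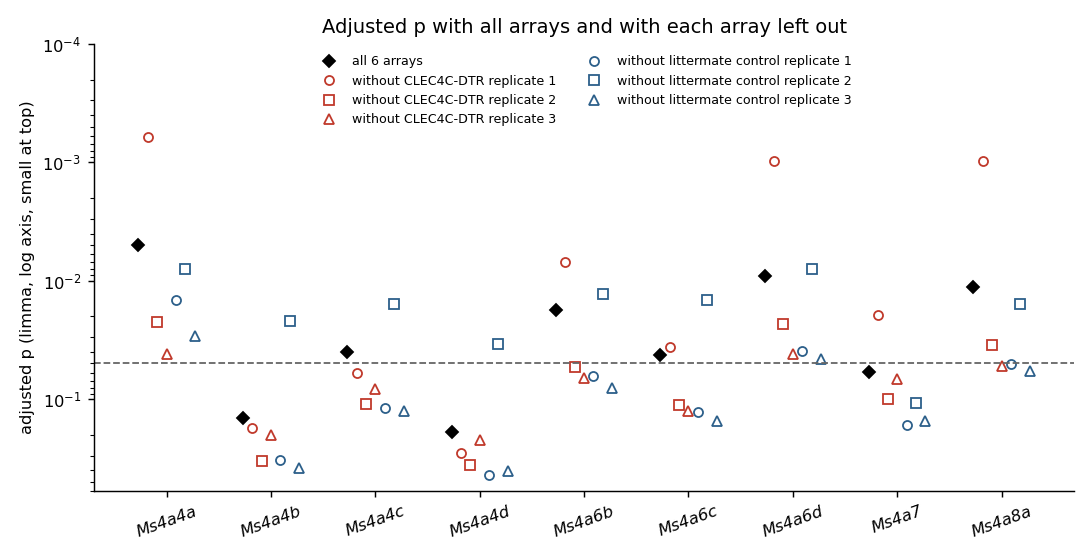
Limma adjusted p of each member (log axis, small values at the top, dashed line at 0.05) with all 6 arrays (black) and with 1 array left out (red for a CLEC4C-DTR mouse, blue for a littermate control). Ms4a4a and Ms4a6d stay above the line in every fit, and Ms4a4b and Ms4a4d cross it only without littermate control replicate 2.

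The changes of close relatives were set against each other. The difference between the log2 values of 2 genes was taken within each array and compared between the groups, for all 9 pairs within the Ms4a4 and Ms4a6 groups. Each pair has the gene with the larger known difference first, so the sign of the shift is fixed by that choice, and the absolute size depends on the probes. Ms4a6d gained 0.73 on Ms4a6c: the within-array difference averaged 0.14 ± 0.04 in CLEC4C-DTR skin and -0.58 ± 0.18 in littermate control skin (SD over 3 mice each). Ms4a6b gained 0.40 on Ms4a6c, with 0.20 ± 0.11 in CLEC4C-DTR skin and -0.21 ± 0.03 in littermate control skin, and Ms4a6d gained 0.32 on Ms4a6b. Ms4a4a gained 1.10 on Ms4a4d and 0.70 on Ms4a4c, and Ms4a4c gained 0.40 on Ms4a4d. In these 6 pairs the groups did not overlap, and the two-sided exact permutation test gave p = 0.1, the smallest that 3 against 3 mice allow (0.15 adjusted over the 9 pairs). In the other 3 pairs they overlapped: Ms4a4a gained 0.81 on Ms4a4b (exact permutation p = 0.2), Ms4a4b gained 0.29 on Ms4a4d (exact permutation p = 0.4) and Ms4a4c gained 0.11 on Ms4a4b (exact permutation p = 0.6). None of the 9 could reach 0.05 in this design. The pairs share genes, so they are not separate comparisons, and the count of pairs without overlap is a description only.

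**Figure D3:**
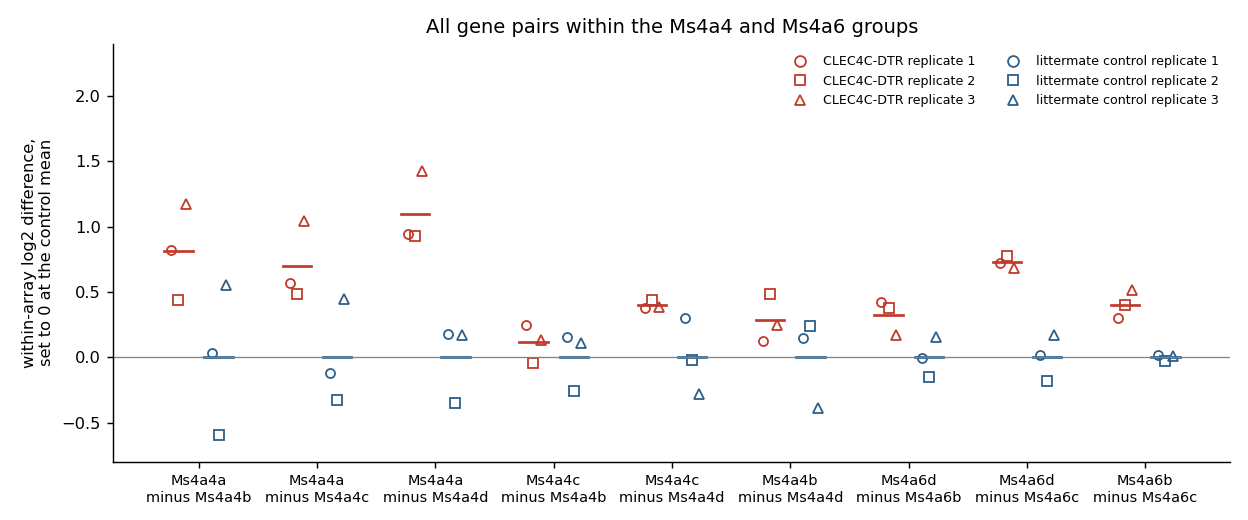
Within-array log2 difference of 2 genes (y axis), set to 0 at the mean of the littermate controls, for the 9 pairs of the Ms4a4 and Ms4a6 groups, with CLEC4C-DTR mice in red left of controls in blue and bars for group means. The red points lie above all blue points in 6 pairs and overlap them in Ms4a4a minus Ms4a4b, Ms4a4c minus Ms4a4b and Ms4a4b minus Ms4a4d.

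The genes with the most similar profile were sought for each member that rose, by Pearson correlation over the 6 arrays. As the groups lie apart in these genes, the group difference enters such an r, and it is given as a description. For Ms4a4a they were Foxp3 (r = 0.995), the transcription factor of regulatory T cells, and Ostf1 (r = 0.994). For Ms4a6d they were the histone gene H4c9 and Cttnbp2nl (both r = 0.997), and for Ms4a8a Taok3 (r = 0.999) and Alox5ap (r = 0.998), which serves leukotriene synthesis. Ms4a6b was followed most closely by Fosl2 (r = 0.997), an AP-1 subunit, and the glycolytic enzyme Pkm (r = 0.996). For Ms4a4c they were Tapbp (r = 0.998), which helps load MHC class I, and Foxp1 (r = 0.997). The odorant receptor gene Olfr358 and Epsti1 (both r = 0.994) were closest to Ms4a6c. Foxp1 and Olfr358 did not pass, with differences of only 0.17 (limma adjusted p = 0.230) and 0.14 (limma adjusted p = 0.294). Olfr358 lay low, at 3.56 to 3.75 over the 6 arrays. Among the members themselves r was highest between Ms4a6d and Ms4a8a (0.988) and lowest between Ms4a4d and Ms4a7 (0.459). Ms4a4b and Ms4a4c, 1 of the pairs with a long shared promoter stretch, had r = 0.954 over the 6 arrays. Whether their probes also read each other's transcripts was not tested.

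Limma called 0 of the other 10 measured Ms4a genes. The cluster on chromosome 19 holds 21 Ms4a genes in RefSeq, of which 19 were measured. The 10 outside the 9 had a median difference of -0.02 (log2, from -0.28 to 0.25). An unadjusted p under 0.05 was found for 1 of them, and for 5437 of all 19938 genes. Their median level lay at the 9.07 percentile of all genes, against 83.7 for the 9 members, and a change in genes so near the lower end of the scale may not be measurable. The 1 gene was Ms4a10, at 5.37, 5.49 and 5.30 in CLEC4C-DTR skin, against 5.71, 5.61 and 5.69 in littermate control skin (log2 -0.28, limma adjusted p = 0.0734). Ms4a1, which encodes CD20, was at 3.92 ± 0.09 in CLEC4C-DTR skin and 4.01 ± 0.15 in littermate control skin (SD, n = 3 each, log2 -0.09, limma adjusted p = 0.607). Ms4a2, the IgE receptor beta chain, differed by -0.06 (adjusted p = 0.804) and Ms4a3, a gene of granulocyte and monocyte progenitors, by -0.03 (adjusted p = 0.829). The others were Ms4a5, Ms4a12, Ms4a13, Ms4a15, Ms4a19 and Ms4a20.

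In gene order the 9 members are not one block. From Ms4a7 the order runs Ms4a4a, Ms4a4c, Ms4a4b, Ms4a6c, Ms4a6b, Ms4a4d and Ms4a6d, while Ms4a8a lies further away, between Ms4a15 and Ms4a20 among the measured genes. Every measured gene from Ms4a7 to Ms4a6d had a positive difference, 5 of the 8 called. All 8 are members picked with their differences known, so this run is a description of that choice and not a result about gene order. Over all 19938 genes 8329 differences were positive. The next measured genes on the sides of this run, Ms4a5 and Ms4a2, differed by -0.04 and -0.06. Of the 3 genes on either side of the cluster, Zp1, Ptgdr2 and Ccdc86 and, at the far end, Oosp2, Oosp1 and Oosp3, none was called, and their differences ran from -0.07 for Oosp2 to 0.31 for Ccdc86.

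**Figure D4:**
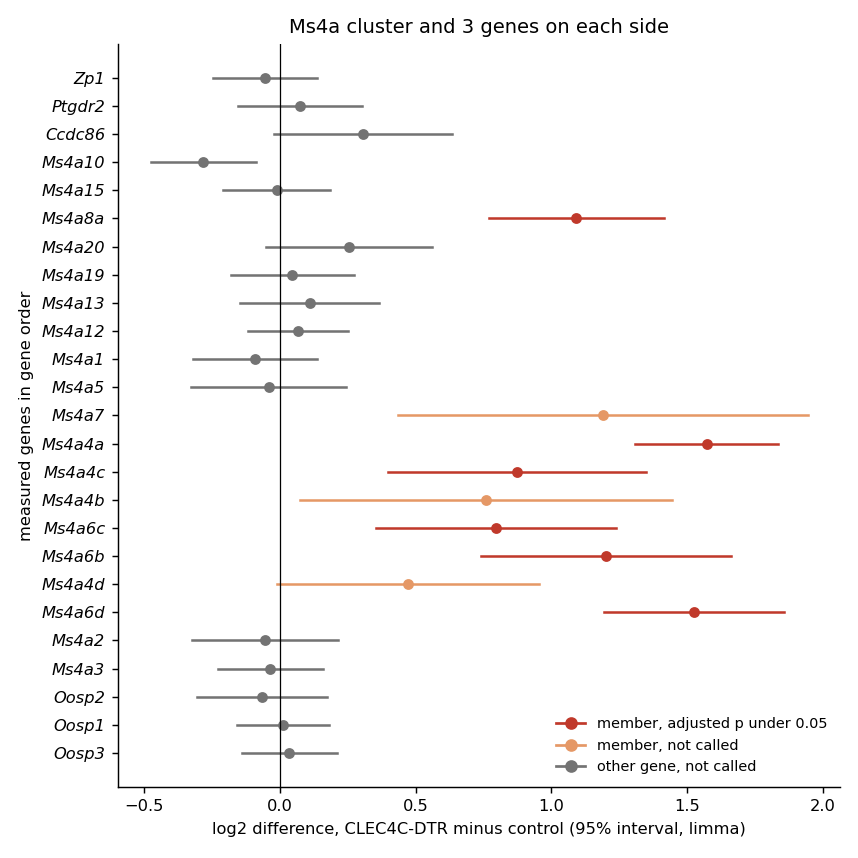
Log2 difference, CLEC4C-DTR minus littermate control (x axis, points with limma's 95% intervals), of the 25 measured genes of the Ms4a cluster and 3 genes on each side, in gene order (y axis, not to genomic scale). The run from Ms4a7 to Ms4a6d and Ms4a8a lie to the right of 0, and all 16 other genes were not called.

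Genes whose products are known to work with Ms4a proteins were measured as a separate list of 8, of which 3 rose and none fell. Over all genes 5.01% rose and 4.31% fell. Clec7a, the beta-glucan receptor, was at 8.64, 10.08 and 9.77 in CLEC4C-DTR skin, against 8.26, 8.05 and 7.34 in littermate control skin (log2 1.62, SE 0.37, limma adjusted p = 0.0370). The common gamma chain of Fc receptors, Fcer1g, rose by 1.22 (SE 0.18, adjusted p = 0.0146) and the adaptor Tyrobp by 0.85 (SE 0.17, adjusted p = 0.0264). Vsig4 was at 3.73 in CLEC4C-DTR skin and 3.62 in littermate control skin (log2 0.11, adjusted p = 0.561). Trem2, whose shed form is tied to MS4A4A in humans, differed by 0.03 (adjusted p = 0.836). Tnfrsf18, the receptor GITR of T cells, differed by -0.21 (adjusted p = 0.124), and the IgE receptor chain Fcer1a by -0.13 (adjusted p = 0.803). The calcium channel gene Orai1 was at 8.27 in CLEC4C-DTR skin and 8.28 in littermate control skin (adjusted p = 0.989). Leaving out CLEC4C-DTR replicate 1 gave 3 rises among the 8 genes, and leaving out either mouse numbered 2 gave 1. In the remaining fits limma called 0, while 3 genes had an unadjusted p under 0.05, as did 3788 to 4447 of all 19938 genes. Of the family's distant relatives, Tmem176a differed by 0.28 (adjusted p = 0.253) and Tmem176b by 0.02 (adjusted p = 0.955).

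Markers of several leukocytes moved with the Ms4a genes. The counts that follow stand beside 5.01% of all genes that rose and 4.31% that fell. Of 14 measured monocyte and macrophage markers, 10 rose and 1 fell, with a median log2 difference of 1.00. Their mean log2 level was 8.94 to 9.32 over the CLEC4C-DTR arrays, against 7.97 to 8.36 over the littermate control arrays. The lysosomal protein Cd68 rose by 0.92 (adjusted p = 0.00937) and the mannose receptor Mrc1 by 1.57 (adjusted p = 0.0123), and the 1 that fell was Mertk, an engulfment receptor, by 0.51 on the log2 scale (adjusted p = 0.0381, named after its values were seen). Left-out fits called Mertk only without littermate control replicate 2. Of 12 genes of alternatively activated macrophages 6 rose, with the arginase Arg1 7.39-fold higher (adjusted p = 0.00119). Arg1 had the largest difference of the list and does not stand for it, as the other 6 genes did not pass. The 12 differences were uneven, from -0.13 to 2.89 on the log2 scale with a median of 0.92, and 11 of them were positive. Of 10 neutrophil markers 8 rose, with a mean level of 8.43 to 9.75 in CLEC4C-DTR skin, against 7.10 to 7.42 in littermate control skin. The calprotectin genes S100a9 and S100a8 were among them, with differences of 1.49 and 1.61. Their part in the change of the Ms4a genes was not tested.

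Lymphoid, interferon and glucocorticoid lists were counted in the same way, beside 5.01% of all genes that rose and 4.31% that fell. Of 11 T cell markers, 8 had an unadjusted p under 0.05 and 1 rose, the adhesion molecule Cd2 (log2 1.18, adjusted p = 0.0102), though all 11 differences were positive. Cd4 differed by 0.36 (adjusted p = 0.0502). Over all 19938 genes, 5437 had an unadjusted p under 0.05 in limma. The mean level of the T cell markers was 7.36 to 7.58 in CLEC4C-DTR skin, against 6.94 to 7.15 in littermate control skin. Of 10 NK and cytotoxic cell markers only Nkg7 rose (log2 0.78, adjusted p = 0.0350), and Gzmb, a granzyme, differed by 1.39 (adjusted p = 0.0769). These 2 do not stand for the list, whose differences ran from -0.19 to 1.39 with a median of 0.04, 6 of them positive. In Gzmb, as in Ms4a4b, littermate control replicate 2 (8.67) lay above a CLEC4C-DTR mouse, here replicate 3 (8.54). Of 12 type I interferon response genes 4 rose (5.01% of all genes did), among them Oasl1 by 0.73 (adjusted p = 0.0242) and Oas3 by 1.29 (adjusted p = 0.0311). The other 8 did not pass. Of the 12 differences 11 were positive, with a median of 0.69, but they were uneven: Mx1 differed by 0.13, Mx2 by 0.04 and Ifit3 by -0.21 (these 3 named after their values were seen). Of 8 genes that glucocorticoids induce, only the scavenger receptor Cd163 rose (log2 1.54, adjusted p = 0.0186), and Per1 differed by 0.36 (adjusted p = 0.105). Cd163 is also counted among the monocyte and macrophage markers that rose, so these lists are not separate.

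Littermate control replicate 2 was the highest control in 8 of the 9 Ms4a genes, Ms4a7 being the exception, against 33.7% of all genes. This was not particular to the 9. The same array was the highest control in 10 of 11 T cell markers, 10 of 12 type I interferon response genes and 10 of 14 monocyte and macrophage markers. It was so in 7 of 9 other Ms4a and Tmem176 genes, but in 5 of 12 alternatively activated macrophage genes, 3 of 10 neutrophil markers and 0 of 6 keratinocyte markers. Set against the mean of the controls, it was 0.74 higher in Ms4a4b, 0.50 in Ms4a4d and 0.48 in Ms4a4c, but 0.14 in Ms4a4a and 0.11 in Ms4a7. On the same array the mean of the type I interferon response genes was 0.47 above the controls' mean, that of the NK and cytotoxic markers 0.27, that of the mast cell and basophil markers 0.29 and that of the monocyte and macrophage markers 0.20. The neutrophil markers were at 0.12. Among the CLEC4C-DTR mice, replicate 3 was highest in Ms4a4a, Ms4a6b, Ms4a6c, Ms4a7 and Ms4a8a, and replicate 2 in the other 4 genes. The part of these lists in the values of the Ms4a genes was not tested.

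**Figure D5:**
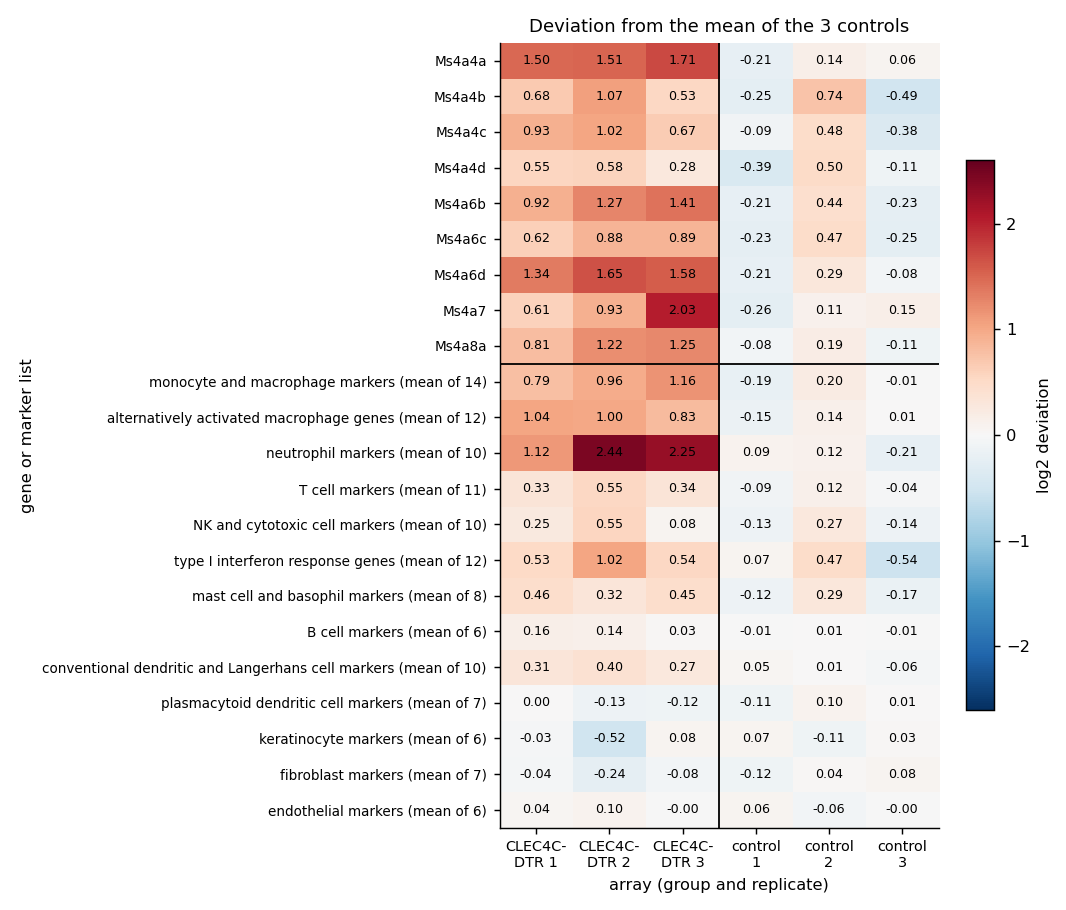
Deviation from the mean of the 3 littermate controls (log2, colour and printed value) of the 9 Ms4a genes and, below the line, of the mean of 13 marker lists, on each of the 6 arrays (CLEC4C-DTR left of control). Littermate control replicate 2 stands 0.74 above the control mean in Ms4a4b, and CLEC4C-DTR replicate 3 stands 2.03 above it in Ms4a7.

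The remaining lists cover other cells that skin could hold, and their counts stand beside 5.01% of all genes that rose and 4.31% that fell. Of 8 mast cell and basophil markers, 1 rose, the histamine-forming enzyme gene Hdc (log2 2.33, adjusted p = 0.0164), and the basophil protease gene Mcpt8 differed by 0.99 (adjusted p = 0.0834). These 2 do not stand for the list, whose differences ran from -0.23 to 2.33 with a median of 0.07, 6 of them positive. Of 10 conventional dendritic and Langerhans cell markers 4 rose and 0 fell, with Fscn1 up by 0.98 and Itgax by 0.53. The list as a whole was uneven, with a median difference of 0.12 and 6 of the 10 differences positive. Its differences ran from -0.36 for Cd207 to 1.60 for Clec9a. In the lists that follow, counts at an unadjusted p under 0.05 stand beside 5437 of all 19938 genes in the same limma fit. Limma called 0 of 6 B cell markers, with 1 at an unadjusted p under 0.05. That was Cd79b (log2 0.31, adjusted p = 0.0848), and Cd22 differed by 0.11 (adjusted p = 0.476). Limma called 0 of 7 plasmacytoid dendritic cell markers, with 2 at an unadjusted p under 0.05 (Tcf4, log2 -0.41, adjusted p = 0.0729, and Bst2, log2 0.57, adjusted p = 0.140). Limma called 0 of 6 keratinocyte markers, with 2 at an unadjusted p under 0.05 (Trp63, log2 -0.33, adjusted p = 0.110, and Krt10, log2 -0.46, adjusted p = 0.120). The keratins Krt5 and Krt14, which mark skin, had their lowest value of all arrays at 11.9. Of 7 fibroblast markers Pdgfra rose by 0.53 and Col1a2 differed by -0.41 (adjusted p = 0.0701), and of 6 endothelial markers Pecam1 rose by 0.40 and Tek differed by -0.23 (adjusted p = 0.174).

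The calls outside the 9 genes rested on single arrays as well. Of 28 named genes that rose, Cd68, S100a8, S100a9, Fscn1, Arg1 and H4c9 passed in all 6 fits with 1 array left out. By omitted mouse, the number that passed was 27, 13 and 7 for CLEC4C-DTR mice 1, 2 and 3, and 8, 22 and 7 for littermate controls 1, 2 and 3. In the same order, monocyte and macrophage markers had 10, 6 and 1 rises, then 3, 10 and 3. Neutrophil markers had 9, 4 and 2, then 3, 6 and 2. Alternatively activated macrophage genes had 5, 2 and 2, then 2, 5 and 2. Conventional dendritic and Langerhans cell markers had 4, 1 and 1, then 1, 1 and 1. T cell markers had 4, 1 and 1, then 1, 1 and 0, with 8 at an unadjusted p under 0.05 in that last limma fit. NK and cytotoxic markers had 1, 0 and 0, then 0, 3 and 0, and limma's 4 fits without a call held 2 or 3 genes at an unadjusted p under 0.05. The type I interferon list had 5 rises when CLEC4C-DTR mouse 1 or littermate control 2 was omitted. In its other 4 fits limma gave 0 calls, while 7 or 8 of its genes had an unadjusted p under 0.05. In those 4 fits 3788 to 4457 of all 19938 genes had such a p.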

How the data were processed

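Total RNA of 6 FITC-treated right ears, 3 of CLEC4C-DTR mice and 3 of littermate control mice, was measured on 1-colour arrays, 1 per mouse. The deposited values are log2 intensities that the authors normalised by RMA, per the series' design text. The sources used here give no software version for it. The genome build mm8 is named, without its role, per the submitters' processing notes. The table held 35556 probe sets, of which 21789 were paired with 1 gene symbol by the platform annotation, 1621 with several and 12146 with none. The brightest single-symbol probe set of each gene gave 19938 genes. Array medians ran between 6.17 and 6.23. The number of arrays limits the precision, no slide or scan batch is given, and 0 pairs of arrays were identical.

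The groups were compared with limma 3.58.1 in R 4.3.3 (lmFit and eBayes), with p-values adjusted by Benjamini-Hochberg over all 19938 genes and a threshold of 0.05. On simulated data with the same genes it recovered 23, 44, 49 and 50 of 50 genes changed by 0.5, 1, 2 and 3 on the log2 scale. The simulated noise was independent between genes and arrays. Variation that arrays share over many genes was not simulated, so these counts are not the power in the real arrays. Within-array differences of member pairs were compared by two-sided exact permutation tests. The members, the gene lists and the naming rule were chosen with earlier results of these data known. Named were all members, the other genes of the cluster, the partner genes, the 2 genes of each marker list with the smallest p, and the 2 genes closest in profile to each member that rose. Promoter sequences and gene order come from RefSeq (GRCm38.p6). Of the motifs searched, 1 is not reported here. Alternatives were other scalings, filters, variance models, array weights, a replicate block and leaving out each array. Plots used matplotlib 3.10.9 (Python 3.11.15).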

Additional observations from a re-analysis of the deposited data

How the results depend on the processing

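Of 143 alternative values of the 9 members, 109 kept direction and side of the threshold, 28 no longer passed, 6 newly passed and 0 changed sign. Leaving out 1 array gave 67 to 2617 genes called and 2 to 8 members. Without moderated variances 0 genes and 0 members were called, with 4387 genes and 6 members at an unadjusted p under 0.05, while moderated limma called 1858 and 6. With all 35556 probe sets tested, 95 probe sets passed, among them those of 2 members (Ms4a4a and Ms4a6d). A further quantile normalisation called 1937 genes and 4 members, as Ms4a4c (adjusted p = 0.0543) and Ms4a6c (0.0516) did not pass, and array weights called 2416 genes and 7 members, with Ms4a7 (0.0330). The cause of these shifts was not tested. Correlations of deviations between same-numbered mice were -0.06, 0.22 and 0.10, and those between differently numbered mice ran from -0.27 to 0.18. The value of 0.22 was the highest of all. These do not settle whether replicate numbers pair the mice. A replicate block gave 2084 genes and 8 members.

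Signs turned only in genes outside the 9 that did not pass. With median centring these were Ms4a15 (0.0214) and Orai1 (0.0296), with a further quantile normalisation Ms4a2 (0.0083), Ms4a3 (0.0124), Ms4a15 (0.0323), Tmem176b (-0.0266) and Zp1 (0.0139), and with array weights Ms4a5 (0.0182). With 1 array left out the ranges crossed 0 for Ms4a2 (-0.16 to 0.0595), Ms4a3 (-0.0759 to 0.0188), Ms4a5 (-0.16 to 0.0603), Ms4a15 (-0.0567 to 0.0361), Ms4a19 (-0.0142 to 0.13), Tmem176b (-0.13 to 0.19), Fcer1a (-0.41 to 0.10), Orai1 (-0.0636 to 0.0377), Trem2 (-0.018 to 0.0673), Oosp1 (-0.0116 to 0.0271) and Oosp2 (-0.12 to 0.0381). The number of arrays, 3 a group, limits the precision of all these values.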
